A study of Drosophila melanogaster with 6 samples.

Results

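The nuclear genes of respiratory complex III, cytochrome c, complex IV and ATP synthase were followed in cells dissociated from the first segment of the foreleg tarsus of Drosophila melanogaster pupae. All features whose symbol starts with UQCR, COX, Cyt-c or ATPsyn were taken, which gave 38 genes of 16496 features: 10 of complex III, 2 of cytochrome c, 11 of complex IV and 15 of ATP synthase. The choice used names only and no measured value. In 26 of them the symbol names a subunit, and the other 12 are paralogs, duplicated copies of a subunit gene named by an added L or, for Cyt-c-d, by its own letter. The series studies how the sex comb, a row of thick bristles on the male foreleg, came about. The libraries held males at 12 h, 16 h, 20 h and 36 h and females at 12 h and 24 h, in hours after puparium formation. The 12 h males and females and the 20 h and 36 h males carried a GAL4 driver of the sex-determination gene doublesex (dsx-GAL4) with UAS-mCherry, and the 16 h males had the same driver with UAS-GFP. The 24 h females came from the strain RAL-517, with neither transgene in the label. Age therefore cannot be told apart from reporter at 16 h, or from strain at 24 h. The 36 h tissue was dissociated for longer, so age there cannot be told apart from dissociation time. Each group was 1 library made from many pooled segments, so no difference below has a replicate check, and every interval covers counting error only.

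Complex III passes electrons from ubiquinol to cytochrome c, a small soluble carrier, and complex IV passes them on to oxygen. Both complexes pump protons, and ATP synthase lets these flow back through a rotating ring of c subunits to make ATP. Most subunits are encoded in the nucleus, while a few core ones are encoded in mitochondrial DNA, so the sets studied here are incomplete by design. In Drosophila, many duplicated copies of such nuclear genes are known for expression in the male germ line, and Cyt-c-d for its part in sperm maturation.

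The genes are spread over the genome (BDGP6 assembly, Ensembl annotation): 3 lie on X, 7 on 2L, 6 on 2R, 8 on 3L, 13 on 3R and 1 on 4. Cyt-c-p, the somatic cytochrome c gene, spans 2L:16719932-16722644 on the plus strand. Cyt-c-d lies next to it at 2L:16715891-16719635 on the same strand. In all, 6 of the 38 genes overlap another gene on the same strand, among them UQCR-Q (with CG46525) and COX6B (with CG18809), and reads there may be shared between the overlapping genes.

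The 6 libraries kept 9709 to 12376 cells and 59191597 to 154637510 unique molecular identifiers (UMIs, which count each captured RNA molecule once). Levels are UMIs summed over cells and scaled to counts per 1e+06 UMIs (CPM). They come from the 3′ end of transcripts and are not divided by length, so levels of different genes are ordered as UMIs only. The 16 h male library was the shallowest, at a median of 5112 UMIs per cell against 8272 to 12112 in the others. Across libraries, 617 of 73379 barcodes occurred more than once. In the 24 h female library, 272 cells (2.20%) held at least 3 UMIs of each roX RNA, which mark male cells, and the ratios below moved by no more than the counting error without them. Cytosolic ribosomal protein genes took 406264 CPM at 16 h and 285182 CPM at 36 h, against 322709 CPM in 12 h males. The 15 heat shock genes took 15938 and 55368 CPM at those ages, against 37957 CPM in 12 h males. The part of either in the results was not tested.

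Summed over its nuclear genes, ATP synthase was lowest at 36 h, while cytochrome c was highest there. Complex III had 1570.1 CPM in males and 1472 CPM in females at 12 h, 990.4 CPM in 16 h males, 1188.5 CPM in 20 h males, 1176 CPM in 24 h females and 1152 CPM in 36 h males. Complex IV had 2466 CPM in males and 2591 CPM in females at 12 h, then 2294 CPM at 16 h, 2171 CPM at 20 h, 1946 CPM in 24 h females and 1630.1 CPM at 36 h. ATP synthase had 5930.4 CPM in males and 6069 CPM in females at 12 h, then 5995 CPM at 16 h, 4733 CPM at 20 h, 4996 CPM in 24 h females and 3096 CPM at 36 h. Complex IV was thus lower at each later male age, except that its 16 h log2 ratio to 12 h males turned to 0.088 with ribosomal protein and mitochondrial genes left out of the total. On the full total, complex III was lowest at 16 h, where ribosomal protein genes took their largest share (406264 CPM). The part of that share in this rank was not tested. ATP synthase at 16 h was close to its level in 12 h males (log2 ratio 0.02, or -0.056 with TMM scaling). Cytochrome c had 152.3 CPM in males and 139.6 CPM in females at 12 h, 94.8 CPM at 16 h, 71.3 CPM at 20 h, 96.4 CPM in 24 h females and 218.8 CPM at 36 h. All 38 genes together made up 1.01% of UMIs in 12 h males and 0.610% in 36 h males.

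**Figure D1:**
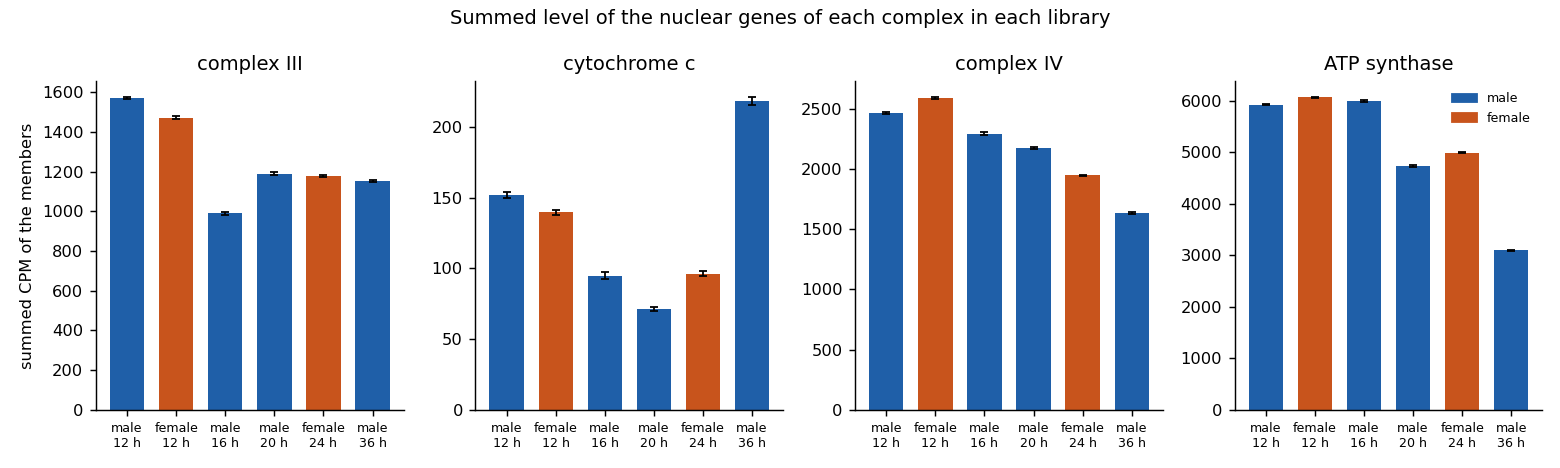
Summed CPM (vertical axes, linear from 0) of the nuclear genes of each complex in the 6 libraries, in order of age; blue bars are male and orange bars female libraries, and the thin error bars are 95% Poisson intervals of the counts. ATP synthase stands at 3096 CPM in 36 h males against 5930.4 CPM in 12 h males, and cytochrome c at 218.8 CPM against 152.3 CPM.

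At 36 h, against 12 h in males, the log2 ratio of the sum was -0.45 for complex III (95% interval -0.46 to -0.44), -0.60 for complex IV (-0.61 to -0.59), -0.94 for ATP synthase (-0.94 to -0.93) and 0.52 for cytochrome c (0.49 to 0.55). The median over all 9378 features with at least 100 UMIs in the pair was -0.17. Of the 28 members above that minimum, 17 were at least 1.5-fold lower and 1 was at least 1.5-fold higher, where 39.3% of all features were that much lower and 32.2% that much higher. ATP synthase gave 10 of its 13 measured members to the lower count, complex IV 5 of 7 and complex III 2 of 7. The share lower in ATP synthase and complex IV lay above that of all features, and the share in complex III below it. At a fold of 2, 7 of 28 members were lower, against 30% of features.

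In complex III, the small subunits UQCR-11, UQCR-Q and UQCR-14 had the highest levels. UQCR-11 had 558.1 CPM in males and 540.7 CPM in females at 12 h, 294.6 CPM at 16 h, 420.5 CPM at 20 h, 394.7 CPM in 24 h females and 446.5 CPM at 36 h. UQCR-Q had 302.8 and 287.4 CPM in the 12 h males and females, then 159.1 CPM at 16 h, 221.1 CPM at 20 h, 169.1 CPM in 24 h females and 201.4 CPM at 36 h. Both were lowest in the 16 h library. The largest difference of the complex at 36 h was that of UQCR-14, with 134.4 CPM at 36 h against 230.3 CPM in 12 h males (log2 ratio -0.78). The smallest was that of UQCR-6.4, with 127.0 CPM against 151.2 CPM (log2 ratio -0.25). The core proteins UQCR-C1 and UQCR-C2 and the catalytic cytochrome c1 subunit Cyt-c1 stood between these, at log2 ratios of -0.45, -0.36 and -0.52.

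In complex IV, COX6B, COX7A and COX4 had the highest mean levels over the libraries. COX6B had 527.3 CPM in males and 619.7 CPM in females at 12 h, 534.5 CPM at 16 h, 544.0 CPM at 20 h, 501.5 CPM in 24 h females and 476.3 CPM at 36 h. It was among the steadiest members across the male ages (log2 ratio at 36 h -0.15). COX7A had 544.6 and 646.1 CPM in the 12 h males and females, then 402.4 CPM at 16 h, 394.3 CPM at 20 h, 405.4 CPM in 24 h females and 293.2 CPM at 36 h. COX4, a nuclear subunit known for regulating the enzyme, had 337.9 and 267.9 CPM at 12 h in males and females, then 416.2 CPM at 16 h, 286.8 CPM at 20 h, 309.0 CPM in 24 h females and 209.8 CPM at 36 h. COX5A showed the largest difference at 36 h, 168.9 CPM against 330.8 CPM in 12 h males (log2 ratio -0.97), and COX8 the smallest, 134.2 CPM against 146.5 CPM (log2 ratio -0.13). COX6B made up 29.2% of the complex IV UMIs in 36 h males, against 21.4% in 12 h males.

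In ATP synthase, the c-ring gene ATPsynC, ATPsynF and the catalytic ATPsynbeta were highest. ATPsynC had 1330.3 CPM in males and 1223 CPM in females at 12 h, 1564 CPM at 16 h, 1219.9 CPM at 20 h, 1296 CPM in 24 h females and 687.6 CPM at 36 h. ATPsynF, a small membrane subunit, had 750.7 and 816.3 CPM at 12 h in males and females, then 476.0 CPM at 16 h, 504.1 CPM at 20 h, 534.7 CPM in 24 h females and 312.6 CPM at 36 h. ATPsynbeta had 589.0 and 517.8 CPM at 12 h in males and females, then 757.4 CPM at 16 h, 503.6 CPM at 20 h, 555.6 CPM in 24 h females and 392.8 CPM at 36 h. ATPsynC and ATPsynbeta were thus highest at 16 h, and ATPsynF was highest at 12 h; all were lowest at 36 h. Among the subunits of this enzyme with the rotor, stalk and catalytic roles, the 36 h log2 ratios were -1.04 for ATPsyngamma and -1.33 for ATPsyndelta of the central stalk, -0.87 for ATPsynO, -1.12 for ATPsynB and -1.13 for ATPsynD of the peripheral stalk, and -0.33 for ATPsynCF6. ATPsyndelta had 103.1 CPM at 36 h against 260.0 CPM in 12 h males. In the membrane part, ATPsynE and ATPsynG stood at -1.31 and -0.68. Every one of the 11 subunit genes of ATP synthase was lower at 36 h, and ATPsynCF6 and ATPsynbeta the least.

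**Figure D2:**
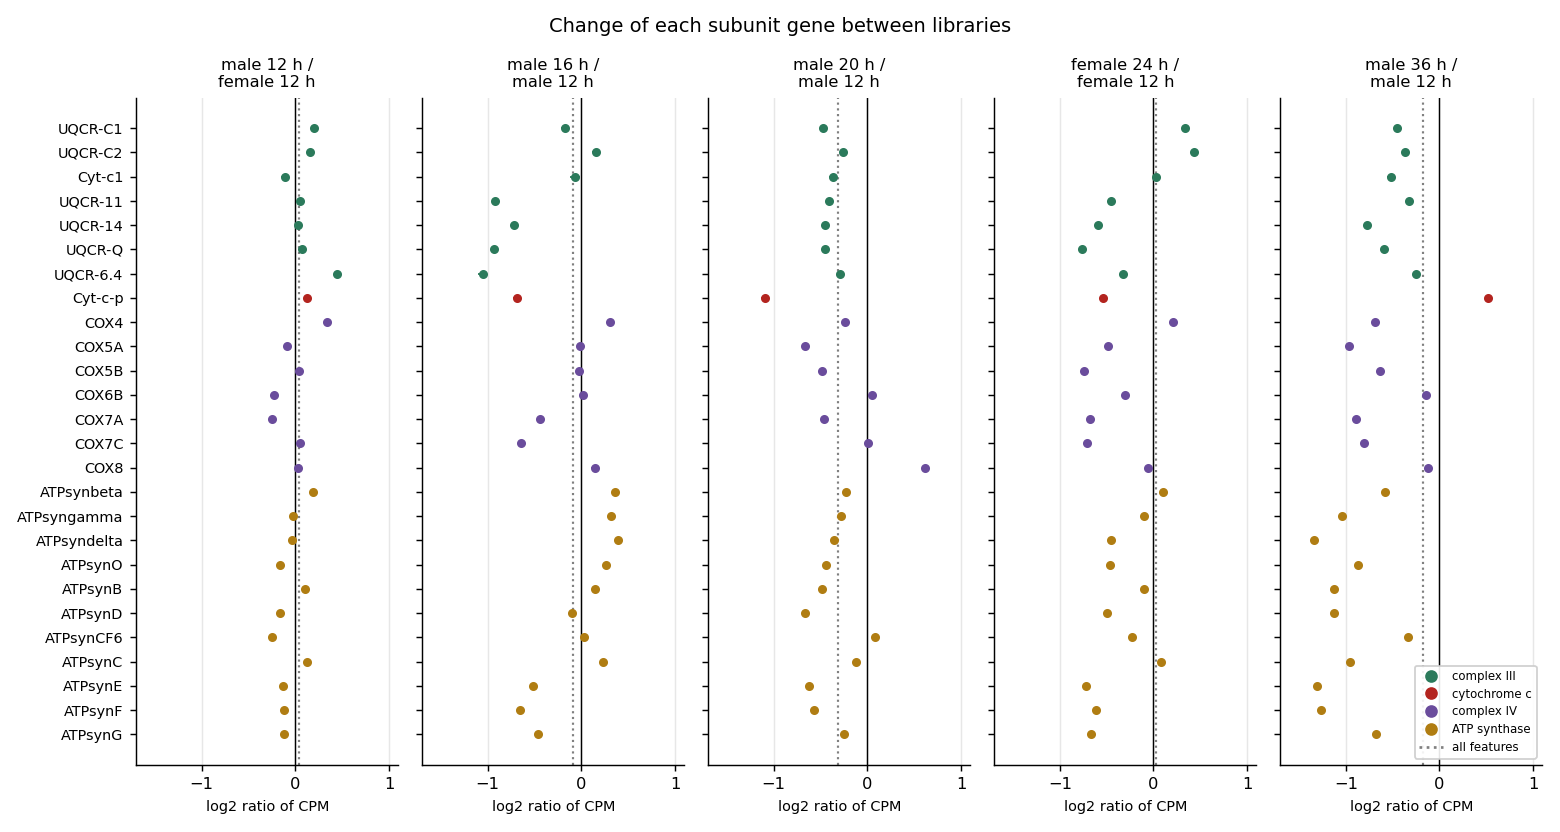
Log2 ratio of CPM (horizontal axes) of the 26 subunit genes in 5 pairs of libraries, coloured by complex; horizontal bars, mostly hidden by the points, are 95% intervals for counting error, and the dotted line is the median of all features. At 36 h against 12 h, 25 of the 26 points lie left of 0, and Cyt-c-p alone lies right of it at 0.52.

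At 12 h, where both sexes had the same genotype, males and females were close. The log2 ratio of males to females was 0.09 for complex III, 0.13 for cytochrome c, -0.07 for complex IV and -0.03 for ATP synthase, beside a median of 0.04 over all features. Of 28 members, 1 was at least 1.5-fold lower in males, where 13.7% of features were, and 0 were that much higher, where 12.8% were. The exception was the paralog ATPsynbetaL, with 0.23 CPM in males and 0.82 CPM in females (log2 ratio -1.86, 95% interval -2.51 to -1.26). The widest subunit differences were those of UQCR-6.4 (151.2 CPM in males, 111.4 CPM in females, log2 ratio 0.44, 95% interval 0.41 to 0.47), COX4 (log2 ratio 0.33), COX7A and ATPsynCF6 (both at log2 ratios of -0.25). Cyt-c1 had the lowest ratio of complex III, at -0.11. Since the spread between libraries of 1 sex is not known, these differences cannot be set against it.

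The 16 h male library stood apart within the complexes. There, 8 of 27 members were at least 1.5-fold lower than in 12 h males and 0 were that much higher, where 22% and 15.2% of features were. With ribosomal protein and mitochondrial genes left out of the total, 4 were that much lower, and the log2 ratio of all members was 0.082, against -0.11 with the full total. At a fold of 2, 2 were lower, against 10% of features. The lower ones at 1.5-fold were 4 complex III genes, Cyt-c-p, COX7C and, in ATP synthase, ATPsynF and the paralog ATPsynepsilonL. In the same library ATPsyndelta, ATPsynbeta, ATPsyngamma and COX4 were higher than in 12 h males, with log2 ratios of 0.39, 0.36, 0.32 and 0.30. At 20 h, 5 of 28 members were at least 1.5-fold lower than in 12 h males and 2 were that much higher, against 37.1% and 19.5% of features. With TMM scaling, 2 members were that much lower at 20 h. At a fold of 2, 2 members were lower and 1 higher, against 21.6% and 13.4% of features. COX8 was one of the higher 2, with 225.0 CPM at 20 h against 146.5 CPM in 12 h males, and ATPsynbetaL the other. The median of all features was itself -0.32 at 20 h, close to the -0.31 of all members summed. In 24 h females, 8 of 28 members were at least 1.5-fold lower than in 12 h females and 0 were that much higher, against 21.2% and 22.2% of features. At a fold of 2, 0 were lower, against 12.8% of features. The 8 included COX5B (138.0 CPM in 24 h females, 231.4 CPM in 12 h females), UQCR-Q, ATPsynE and COX7C, while UQCR-C2 and UQCR-C1 were higher, with log2 ratios of 0.43 and 0.34.

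Transcript length ran alongside the 16 h and 24 h female ratios more than the 20 h and 36 h ones. The 17 subunit genes whose longest annotated transcript is under 1000 bases had a median log2 ratio of -0.44 at 16 h, and the 9 longer ones a median of 0.23. Over all features the same split gave -0.20 and -0.08. For 24 h against 12 h females, the short subunit genes had a median of -0.54 and the long ones 0.08, beside -0.11 and 0.06 over all features. At 36 h against 12 h in males the medians of the subunit genes were -0.78 and -0.58, beside -0.57 and -0.10 over all features. Spearman's rho between length and log2 ratio was taken across the 26 genes, as a description over genes that share libraries. It was 0.56 at 16 h, 0.17 at 20 h, 0.54 in 24 h females and -0.18 at 36 h. Over all features it was 0.15, 0.26, 0.01 and 0.26 in the same order. The cytosolic ribosomal protein genes showed the same order at 16 h, with medians of 0.27 for the short and 0.61 for the long ones. What part length, library depth or the reporter had in the 16 h values was not tested.

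**Figure D3:**
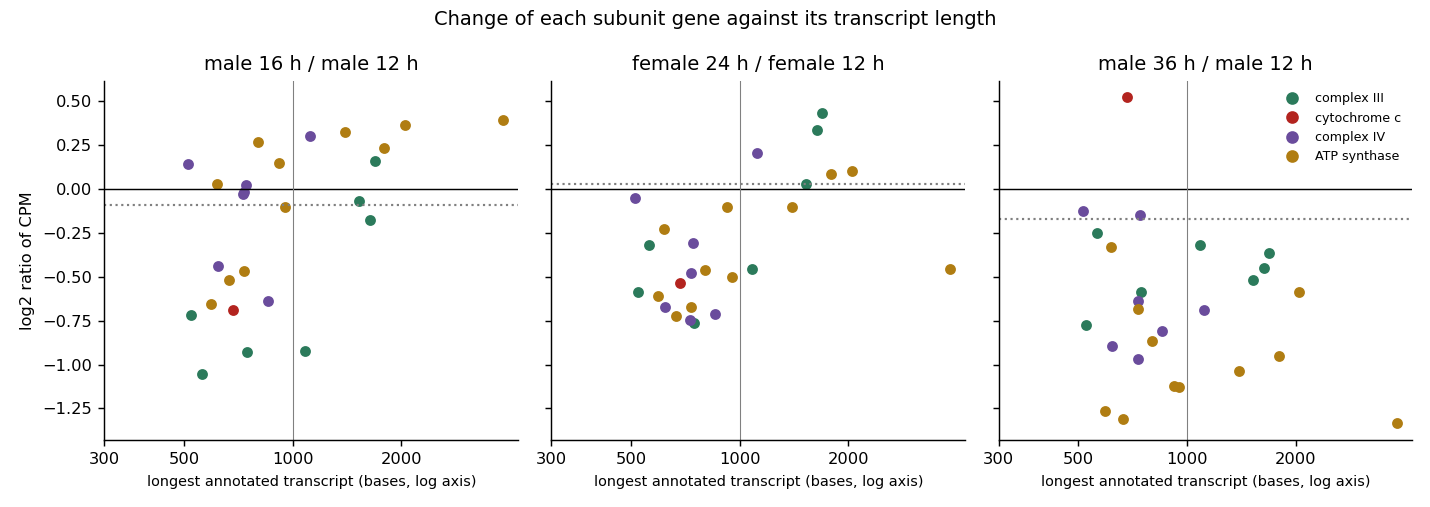
Log2 ratio of CPM (vertical axes) of the 26 subunit genes against the length of their longest annotated transcript in bases (horizontal log axes), with a vertical line at 1000 bases and the median of all features dotted. At 16 h and in 24 h females the genes right of the line have medians of 0.23 and 0.08 and those left of it -0.44 and -0.54, while at 36 h both sides are below 0.

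Subunits that the name prefixes miss were measured for comparison. In the files these are RFeSP (the iron-sulphur protein of complex III), ox, cype and levy (small subunits of complexes III and IV), and blw and sun (the alpha and epsilon subunits of ATP synthase). Their sum was 1235 CPM at 36 h against 1782 CPM in 12 h males (log2 ratio -0.53). The catalytic partner of ATPsynbeta, blw, had 364.2 and 366.9 CPM at 12 h in males and females, then 413.7 CPM at 16 h, 310.1 CPM at 20 h, 510.2 CPM in 24 h females and 235.9 CPM at 36 h. It was thus highest in 24 h females and lowest at 36 h. Summed, the mitochondrially encoded subunits of the same complexes did not follow the nuclear ones. The sum of mt:Cyt-b, mt:CoI, mt:CoII, mt:CoIII, mt:ATPase6 and mt:ATPase8 was 8156 CPM in males and 8534 CPM in females at 12 h, 8978 CPM at 16 h, 8506 CPM at 20 h, 11169 CPM in 24 h females and 9199 CPM at 36 h. At 36 h the log2 ratio of this sum was 0.17 where that of the nuclear members was -0.73. Of the 6 genes, 5 were above their 12 h male level, though mt:ATPase8 only within counting error (12.3 against 12.1 CPM). mt:ATPase6, of ATP synthase, was below it, with 926.2 CPM against 1076.6 CPM (log2 ratio -0.22). Among other respiratory genes, 15 of 33 measured complex I subunits and 4 of 4 complex II subunits were at least 1.5-fold lower at 36 h, with median log2 ratios of -0.53 and -0.92, where 39.3% of all features were that much lower. The 6 assembly factors found in the files summed to 113.8 CPM at 36 h against 151.8 CPM in 12 h males.

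Cells were next divided into classes by clusters that were built without any respiratory gene and named by marker genes. Summed marker levels set hemocyte-like cells clearly apart (4716 to 9841 CPM over the libraries, against 49.6 to 74.2 CPM in all other cells). They set the epithelium-like class apart least, with 0 or 1 of its 12 markers at least 2-fold above other cells, and the socket marker CG34189 was at 0 in socket-like cells of all 6 libraries. Socket-like or sensory precursor-like cells stood highest and hemocyte-like cells, the circulating blood cells, lowest in the 5 libraries of 12 h to 24 h. With ribosomal protein and mitochondrial genes left out of the total, glia-like cells were highest at 16 h and in 24 h females, and at a marker fold of 1.5 shaft-like cells were highest at 20 h and in 24 h females. Sensory precursor-like cells, the progenitors of sense organs, had 15927 CPM of all members in 12 h males and 15438 CPM in 12 h females. Socket-like cells, which form the ring around a bristle, had 16011 and 14686 CPM there, 12158 CPM at 16 h, 11951 CPM at 20 h, 10935 CPM in 24 h females and 6929 CPM at 36 h. Hemocyte-like cells had 5773 and 6308 CPM at 12 h in males and females, then 6288 CPM at 16 h, 6313 CPM at 20 h, 5269 CPM in 24 h females and 6104 CPM at 36 h. Hemocyte-like cells thus varied little with age, and socket-like cells lay close to them at 36 h. Between 1523 and 2632 cells per library stayed unnamed. The highest class exceeded the lowest 2.77-fold in 12 h males (socket over hemocyte, 9 classes), 1.93-fold at 16 h, 1.89-fold at 20 h, 2.08-fold in 24 h females and 2.42-fold at 36 h, where neuron-like cells were highest and sheath-like cells lowest. These 36 h extremes depend on the clusters: at the finer clustering glia-like cells were highest, and at a marker fold of 1.5 tendon-like cells were lowest. In 12 h females the extremes were sensory precursor-like and hemocyte-like cells, 2.45-fold apart.

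**Figure D4:**
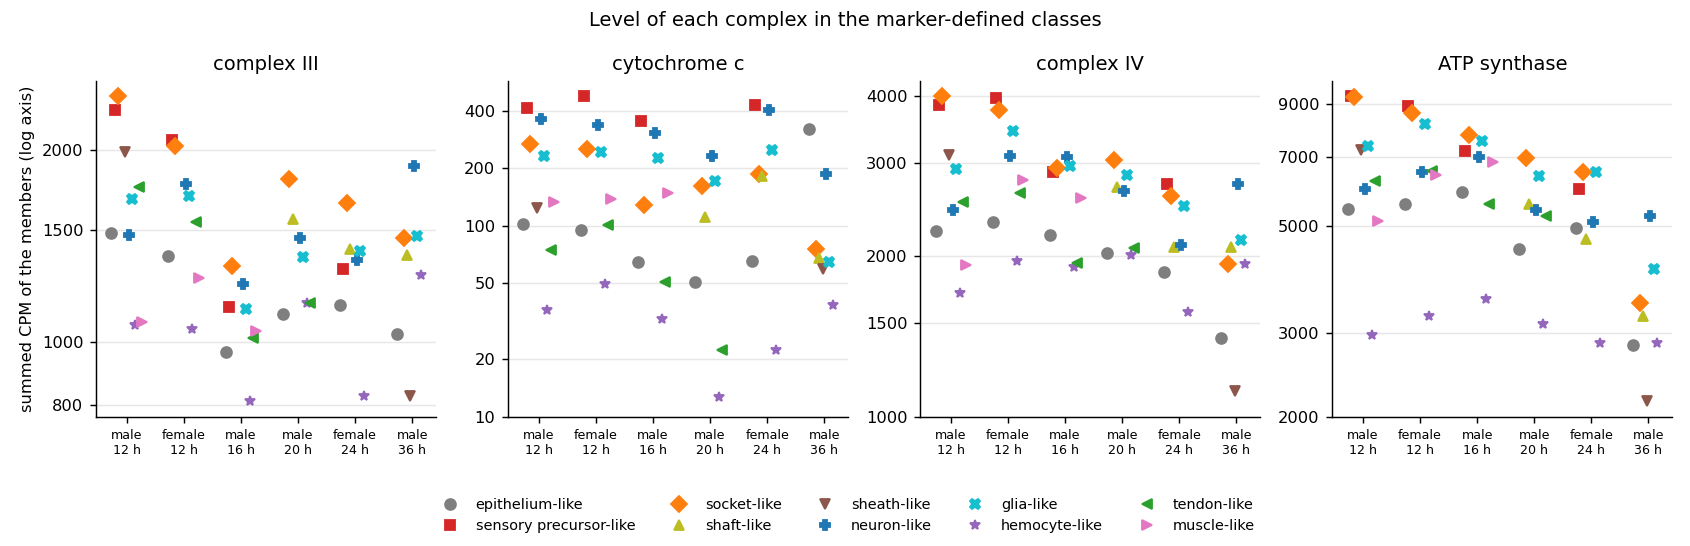
Summed CPM (vertical log axes) of the nuclear genes of each complex in the marker-defined classes of each library; each symbol is a class of at least 50 cells, slightly offset within a library. In 12 h males and females socket-like and sensory precursor-like cells are the top 2 classes in complex III, complex IV and ATP synthase, and at 36 h neuron-like cells lead in complex III, complex IV and ATP synthase.

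Between socket-like and hemocyte-like cells the difference was shared by nearly all subunits at 12 h. These classes were picked for their summed levels of the same genes, after the values were seen. The counts below therefore only describe how the gap was spread over the subunits, and the shares of all features beside them are no test of it. In males, 26 of 26 subunit genes were at least 1.5-fold higher in socket-like cells, with a median log2 ratio of 1.39, where 33.5% of features were that much higher. In 12 h females 24 of 26 were, against 43.7% of features, and in 24 h females 22 of 26, against 41.8%. At 16 h and 20 h, 19 and 18 of 26 were, against 33% and 37.4%. At 36 h only 5 of 26 were, against 36.1% of features, and the median log2 ratio was 0.15. Cyt-c-p had the widest gap in 12 h males, with 268.1 CPM in socket-like and 36.4 CPM in hemocyte-like cells. ATPsynC followed among the genes of ATP synthase, with 2058 and 451.9 CPM, and COX4 and UQCR-14 had the narrowest gaps, both at a log2 ratio of 0.76. The 12 h hemocyte-like cells were shallower, with medians of 5342 UMIs per cell in males and 3795 UMIs in females, against 18661 and 12640 UMIs in socket-like cells. The medians were closer at 16 h, with 6347 UMIs in socket-like and 6350 UMIs in hemocyte-like cells, and in 24 h females, with 15773 and 14316 UMIs.

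The 16 h, 20 h and 36 h ratios share the 12 h male library. Within classes, the 36 h ratios differed. Against 12 h males, the log2 ratio of all members was -0.73 in epithelium-like cells, -0.66 in glia-like, -1.21 in socket-like and -1.58 in sheath-like cells, but -0.03 in neuron-like and 0.08 in hemocyte-like cells. In epithelium-like cells 18 of 27 members were at least 1.5-fold lower (42.6% of features in those cells), in glia-like cells 15 of 26 (40.8%), in socket-like cells 21 of 26 (36.8%) and in sheath-like cells 25 of 26 (44.5%). In those 4 classes 1, 0, 0 and 0 members were that much higher, where 29.5%, 23.6%, 32.4% and 26.8% of features were. In neuron-like cells 3 of 26 were lower (22.9%) and 2 were higher (39.4%). In hemocyte-like cells 0 of 26 were lower (34.1%) and 3 were higher (19.5%). ATP synthase in neuron-like cells stood at 5255 CPM at 36 h against 5984 CPM at 12 h, and complex III at 1882 against 1469 CPM. In socket-like cells ATP synthase stood at 3462 CPM at 36 h against 9316 CPM at 12 h. The sheath values are the least firm, since the 36 h sheath-like cells had a median of 3372 UMIs, against 10459 UMIs at 12 h, and the 12 h sheath-like cluster also led with a socket marker, Su(H). Between the sexes at 12 h, all members in epithelium-like cells were at 9249 CPM in males and 9343 CPM in females, a difference that turned round with TMM scaling (log2 ratio 0.085), and muscle-like cells differed the most of the 8 classes held by both libraries, with 8274 CPM in 249 male cells and 10581 CPM in 415 female cells.

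Of the member sets, only cytochrome c was higher at 36 h than in 12 h males, and its high 36 h level came from a single cluster. In glia-like cells Cyt-c-p had 63.9 CPM at 36 h against 233.4 CPM in 12 h males, in neuron-like cells 187.5 against 363.8 CPM, and in socket-like cells 74.2 against 268.1 CPM. In epithelium-like cells it was higher, with 322.9 CPM at 36 h against 101.8 CPM at 12 h, and in hemocyte-like cells it stood at 37.8 against 36.4 CPM. Of the 12 epithelium-like clusters of at least 50 cells at 36 h, 1 had 2754 CPM of Cyt-c-p and the median was 85.2 CPM. That cluster held 369 cells (3.54% of the library) and 14120 of the Cyt-c-p UMIs (62.4%). Its leading genes, ranked with all respiratory genes left out beforehand, were CG15023, Osi12 and the ecdysone-induced factor Eip93F. No epithelium-like cluster at 12 h to 24 h exceeded 186 CPM.

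The cluster was chosen for its Cyt-c-p level after the values were seen, so that level is a description. Among its cells 93.8% had at least 10 Cyt-c-p UMIs, against 0.0660% of the other epithelium-like cells. The cells of the cluster held a median of 13842 UMIs, against 7618 in the others. The same 369 cells formed 1 cluster at the finer clustering. At a marker fold of 1.5 in place of 2 they passed 4 shaft markers (sn, sha, m and tyn), so the epithelium-like name depends on that threshold. Most other members were also higher there: complex III had 1714 CPM in the cluster against 963.3 CPM in the other epithelium-like cells, complex IV 2407 against 1312 CPM, and ATP synthase 4862 against 2625 CPM. Of the 25 measured members other than Cyt-c-p, 22 were at least 1.5-fold higher, where 28.3% of features were, with Cyt-c1 (3.27-fold), ATPsynE (3.09-fold) and COX4 (2.44-fold) next after Cyt-c-p (31.3-fold). ATPsynF was the 1 member below, at 290.7 against 307.6 CPM. Complex I subunits stood at 4181 against 2376 CPM, whereas the mitochondrially encoded subunits of complexes III to V stood at 7045 against 9252 CPM. Without the cluster, Cyt-c-p had 86.4 CPM at 36 h and its log2 ratio to 12 h males was -0.82, against 0.52 with it. The other complexes kept their direction, with log2 ratios of -0.48, -0.63 and -0.98 for complex III, complex IV and ATP synthase.

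**Figure D5:**
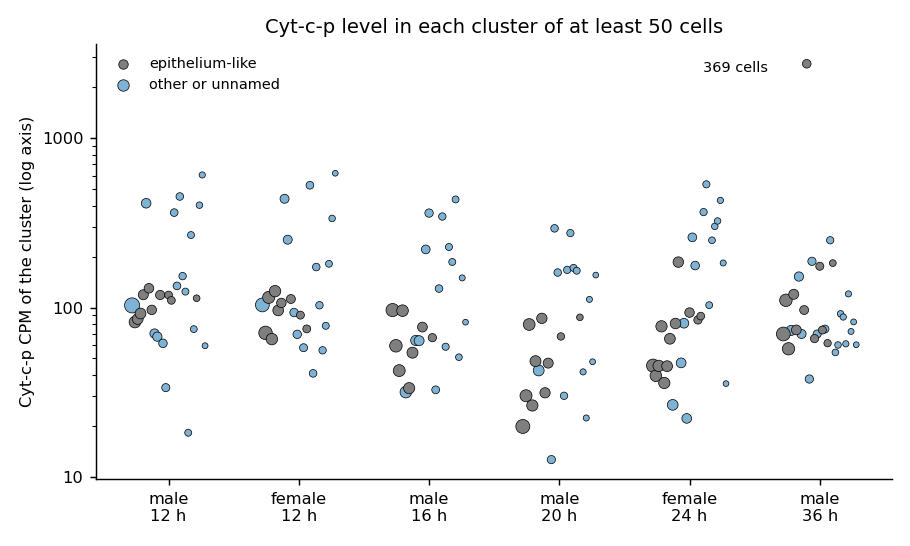
Cyt-c-p level (CPM, vertical log axis) of every cluster of at least 50 cells in the 6 libraries; grey circles are epithelium-like clusters, blue circles are other or unnamed clusters, the area grows with the number of cells, and the horizontal spread within a library has no meaning. One 36 h cluster of 369 cells stands at 2754 CPM, while the median epithelium-like cluster of that library stands at 85.2 CPM.

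Elsewhere Cyt-c-p was found most often in neuron-like and sensory precursor-like cells of 12 h males and 24 h females, with socket-like or glia-like cells near them. After thinning each cell to 2000 UMIs, 54.3% of sensory precursor-like, 47.6% of neuron-like and 17.5% of epithelium-like cells of the 12 h males had a Cyt-c-p UMI, against 6.87% of hemocyte-like cells. Before thinning, 95.9%, 89.6%, 68.0% and 23.7% of these cells had one, and they held medians of 19401, 10591, 13828 and 5342 UMIs. In 24 h females the thinned shares were 60%, 54.2%, 13.2% and 4.64% in the same order. Hemocyte-like cells, with the lowest shares, give the level against which the others are read.

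The 12 paralogs were nearly silent: together they gave 4045 UMIs, or 0.0687% of all member UMIs. COX6AL and ATPsynGL had 0 UMIs in all libraries, which allows up to 0.00445 CPM over the series (3 counts). UQCR-11L, UQCR-14L, COX5BL and ATPsynCF6L had 34, 20, 20 and 11 UMIs. ATPsynepsilonL, a copy of the epsilon subunit gene sun, gave 2925 UMIs, most of the paralog signal, against 203003 for sun itself. It had 6.59 CPM in males and 4.53 CPM in females at 12 h, 2.64 CPM at 16 h, 2.79 CPM at 20 h, 5.83 CPM in 24 h females and 1.59 CPM at 36 h (log2 ratio of 36 h to 12 h males -2.05, 95% interval -2.30 to -1.81). In 12 h males it stood at 23.7 CPM in socket-like, 20.6 CPM in sensory precursor-like and 16.96 CPM in tendon-like cells, against 3.70 CPM in epithelium-like cells. The same classes of 12 h females, in that order, had 13.84, 11.77, 13.88 and 2.85 CPM. ATPsynbetaL (466 UMIs) had 0.23 CPM in males and 0.82 CPM in females at 12 h, 0.79 CPM at 16 h, 0.80 CPM at 20 h, 0.60 CPM in 24 h females and 1.07 CPM at 36 h. The 12 h male library was the low one, and 36 h against it gave a log2 ratio of 2.24 (95% interval 1.64 to 2.89).

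Some paralogs had too few UMIs for the minimum of 100 in a pair. At a minimum of 20 UMIs 32 members could be compared, and 1 was at least 1.5-fold higher in 12 h males than in females (13.5% of features), 3 at 16 h than in 12 h males (22.3%) and 3 at 36 h (37.8%). All were paralogs: COX4L in the comparison of the sexes, and Cyt-c1L, Cyt-c-d and ATPsynbetaL at 16 h and 36 h.

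COX4L had most of its UMIs in a single class. Of its 120 UMIs, 98 (81.7%) fell in hemocyte-like cells, and its level there was between 2.33 and 5.27 CPM in the 6 libraries, against at most 0.0315 CPM in epithelium-like cells. These levels rest on 8 to 36 UMIs per library, and the 12 h female value of 3.31 CPM had a 95% interval of 1.76 to 5.67 CPM. Its parent COX4 had 270.4 CPM in hemocyte-like and 325.9 CPM in epithelium-like cells of the 12 h males. COX7AL also had 120 UMIs, of which 33 lay in neuron-like, 28 in sensory precursor-like and 17 in socket-like cells and 1 in hemocyte-like cells. Cyt-c1L (170 UMIs) and Cyt-c-d (159 UMIs) had 52.9% and 47.2% of their UMIs in epithelium-like cells, the most numerous class. Cyt-c-d had 0.14 CPM in 12 h males and 0.36 CPM at 36 h, so that Cyt-c-p made up nearly all of the cytochrome c sum at both ages.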

How the data were processed

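Single-cell RNA libraries of dissected, pooled first tarsal segments were made with droplet 3′ chemistry. The deposited matrices hold raw UMI counts per gene and barcode. Per the submitters' processing notes, Cell Ranger 7.0.0 and the BDGP6 genome were used; the sources used here do not give their settings. The authors deposited 12000 to 13998 barcodes per library that is used here. The matrices of 2 further groups, 24 h and 30 h males, match no sample label and were not analysed here.

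Barcodes with at least 500 genes and at most 10% mitochondrial UMIs were kept, and the barcodes with the highest Scrublet scores (0.8% per 1000 cells) were removed as doublets. Each library was clustered alone in scanpy 1.11.5 (2000 variable genes, 30 principal components, 15 neighbours, leidenalg 0.10.2 at resolution 1), without the members, other respiratory or mitochondrial genes. A cluster was called X-like where at least 3 markers of a class passed a fold of 2 and 10% of cells. Epithelium-like clusters needed at least 6 epithelial markers that were in 10% of cells at a log2 fold of -1 or more, and 3 markers of no other class. A further rule, for muscle and trachea only, was set after the clusters were seen. It asked for twi or Mef2 in muscle-like clusters and trh or btl in trachea-like ones. Clusters whose top 10 genes held more markers of another class also lost their name. So did very small clusters, and shallow clusters without a marker of their class among the top genes. Clusters that failed stayed unnamed, classes under 50 cells are not reported, and differences from the study may come from these rebuilt names.

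UMIs were summed over cells and given as CPM, with exact 95% Poisson intervals and conditional binomial intervals for ratios; the PCR copies are collapsed by UMI, and intervals and the 3-count floor cover counting error only. With 1 library per group no test was run; features with at least 100 UMIs in a pair that differed by at least 1.5-fold were counted. TMM factors came from edgeR 4.0.16. Thinning to 2000 UMIs per cell left out shallower cells. Ratios, their intervals and the thinning were checked on simulated counts.

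The members, gene lists and rules were chosen with earlier results of these data known. Named genes are the 3 members of each complex with the highest mean CPM, those with the largest and smallest 36 h and 12 h sex ratios, the paralogs with their parents, and the subunits missed by the prefixes. Other genes, and the 36 h cluster, were named after their values were seen, and the pair of socket-like and hemocyte-like cells was picked then too. Gene positions are from the Ensembl annotation of BDGP6.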

Additional observations from a re-analysis of the deposited data

How the results depend on the processing

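No paired analysis was possible because each group holds 1 library and no result comes from a test. The alternatives that use all deposited barcodes or leave out the cluster high in Cyt-c-p were chosen after seeing the data. All values are log2 ratios of all members unless said otherwise, the interval of counting error is narrow, and where a value turned or moved the cause was not tested beyond what the setting itself removes.

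With ribosomal protein and mitochondrial genes left out of the total, the 16 h ratio to 12 h males turned to 0.082 (complex IV 0.088), with 4 members at least 1.5-fold lower. The other ratios under that total were -0.22 at 20 h (2 members lower), -0.81 at 36 h, -0.35 in 24 h against 12 h females and -0.042 in males against females at 12 h. In epithelium-like cells it gave -0.23 in 24 h females and -0.056 between the sexes. The span of the classes became 1.79 in males and 1.48 in females at 12 h, 1.23 at 16 h, 1.08 at 20 h, 1.28 in 24 h females and 1.12 at 36 h. TMM scaling gave -0.18 at 16 h (ATP synthase -0.056), -0.17 at 20 h (2 members lower), -0.76 at 36 h and -0.34 in 24 h females; in epithelium-like cells it gave -0.75 at 36 h, -0.16 in 24 h females and 0.085 between the sexes.

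Thinning to 2000 UMIs gave -0.060 at 16 h, -0.28 at 20 h, -0.77 at 36 h, -0.31 in 24 h females and -0.043 between the sexes, and in epithelium-like cells -0.797, -0.22 and -0.020 at 36 h, in 24 h females and between the sexes. Without ATPsynC, the member with the most UMIs, the ratios were -0.17 at 16 h, -0.34 at 20 h, -0.70 at 36 h, -0.39 in 24 h females and -0.042 between the sexes. Cells with at least 1000 genes gave -0.10, -0.74, -0.33 and -0.018 at 16 h, at 36 h, in 24 h females and between the sexes. Keeping doublets gave -0.12 at 16 h, -0.32 at 20 h and -0.33 in 24 h females, and all deposited barcodes gave -0.32 at 20 h and -0.33 in 24 h females.

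At a fold of 2, the members counted lower were 2 at 16 h, 2 at 20 h, 7 at 36 h and 0 in 24 h females, and 1 was higher at 20 h. With a minimum of 20 UMIs, 1 member was higher in 12 h males than females, 3 at 16 h and 3 at 36 h. Finer clustering gave class spans of 1.45 in 12 h males, 0.95 at 20 h and 0.90 at 36 h, and epithelium-like ratios of -0.75 at 36 h, -0.22 in 24 h females and -0.0046 between the sexes. The looser marker threshold gave spans of 1.19 in 12 h females, 1.01 at 16 h, 1.04 at 20 h and 1.14 at 36 h, and epithelium-like ratios of -0.89 at 36 h and -0.22 in 24 h females. Without the cluster high in Cyt-c-p, the 36 h ratio was -0.802 over all cells and -0.89 in epithelium-like cells, and those of cytochrome c and Cyt-c-p turned to -0.81 and -0.82.

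What limits these values is the single library per group, so the spread between libraries is unknown. Reporter and strain differ at 16 h and 24 h, dissociation was longer at 36 h, and paralog levels rest on few UMIs.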
